A study of Mus musculus with 5 samples.

Results

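Potassium channel genes were examined in RNA from mouse striatum, as the 40 genes with symbols starting Kcn that the deposited counts measure out of 98 such genes in GENCODE M21, an annotation of mouse genome build GRCm38. Kcnq1ot1, a non-coding RNA with a Kcn symbol, was left out. The libraries came from homogenised striata of adult mice. One group carries the Adcy5 R419W allele (knock-in, KI, replicates 1 and 3, n = 2) and the other is its wild-type littermates (WT, replicates 1 to 3, n = 3). The sources used here give no zygosity, sex or exact age. Adcy5 encodes the main striatal adenylyl cyclase, which makes cAMP, and the comparison asks which channel transcripts differ when the allele is present. The labels do not say that each library is 1 animal. The p-values therefore rest on spread between libraries alone, part of which may be technical.

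Potassium channels let potassium leave a neuron and so set how far it rests from firing, how soon it fires and how fast it repolarises. Spiny projection neurons, the output cells of the striatum, are known for a strongly negative resting potential held by inward rectifiers, and for A-type voltage-gated currents that delay the first spike. The family divides into voltage-gated pore-forming (alpha) subunits, modulatory alpha subunits that are silent alone, KCNQ channels of the M-current, the EAG, ERG and ELK group, channels opened by intracellular calcium or sodium, inward rectifiers, tandem-pore leak channels, and auxiliary subunits.

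The names rest on positions. Fragments sit where GRCm38 places the genes, but the counting intervals come from GRCm39. Each feature was therefore given the name of the GRCm38 gene with exons inside it, and its label in the files was not used. Only 7 of the 40 members were read by a feature that carries their own label. A further 14 Kcn genes, among them Kcnip2 and Kcnh4, lay only under features shared with other protein-coding genes, and 44, among them Kcnj2, Kcnn2 and Kcnq3, had no feature over their exons and were not measured. Adcy5 itself had no named feature, and fragment counts do not show which allele is present, so the genotype labels could not be checked. A feature usually covers part of a gene and often some of its introns, so a level is that of the covered stretch and may include unspliced RNA. For 13 of the 40 members most of the feature's bases lie outside the named gene, and fragments from there are counted too. Total counts ranged from 6595105 to 7910584 per library. Counts were turned into CPM (counts scaled to a common library size) on library sizes scaled by the trimmed mean of M-values (TMM).

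Genes of spiny projection neurons were present as the tissue label implies: Penk, the enkephalin gene, lay between 5278 and 8248 CPM over the 5 libraries, and the 9 measured genes of a list of 24 summed to 8920, 11639 and 10398 CPM in WT replicates 1, 2 and 3 and to 7556 and 8361 CPM in KI replicates 1 and 3. None of the 9 was at 0 in every library, though Meis2 held 1 count in WT replicate 1 alone. Both KI sums lie below all WT sums, but Penk makes up most of each. Without Penk the sums were 2220.5, 3391 and 3068 CPM in WT and 2278 and 2478 CPM in KI, so that both KI sums exceeded WT replicate 1. Of the 8 tested genes of the list 5 had log2 fold changes below 0 and 3 above, none passing the edgeR test. An unadjusted edgeR p under 0.05 was reached by 3 of the 8, all lower, where 3.72% of all features did so in that direction. Rgs9, a regulator of striatal G protein signals, was lower in both KI libraries (177 and 222 CPM) than in WT (300, 505 and 418 CPM), whereas Tac1, the substance P precursor gene, had 1026 and 982 CPM in KI and 744, 1004 and 989 CPM in WT. Markers of neighbouring regions also differed between libraries. The 5 measured cortical projection neuron genes of 14 summed to 140, 404 and 330 CPM in WT replicates 1, 2 and 3 and to 150 and 59.6 CPM in KI replicates 1 and 3, with none at 0 in any library. The 5 measured thalamic genes of 7 summed to 296, 75.2 and 58.6 CPM in WT, against 159 and 48.1 CPM in KI, none at 0 in any library, so that WT replicate 1 and KI replicate 1 were the highest of their groups. The choroid plexus gene Ttr stood at 2086 CPM in KI replicate 3 and between 28.0 and 61.6 CPM elsewhere. The part of these differences in the results below was not tested unless a value is given.

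Kcns2, Kcnj4 and Kcnh3 were lower in KI striatum, and no potassium channel gene passed the test as higher. Kcns2 encodes a modulatory alpha subunit that has no current of its own and alters channels it joins. Kcnj4 encodes an inward rectifier and Kcnh3 a voltage-gated channel of the ELK type. Their levels in the KI libraries were 40.8% to 60.9% of the WT mean. Of the 40 members 26 had enough counts to be tested, and 3 of these (all lower) passed an edgeR quasi-likelihood adjusted p under 0.05, where 0.102% of all 13665 tested features did so in either direction and 0.0585% were lower. The family was taken up with the calls of these 3 genes already known, so nothing is read from the count.

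**Figure D1:**
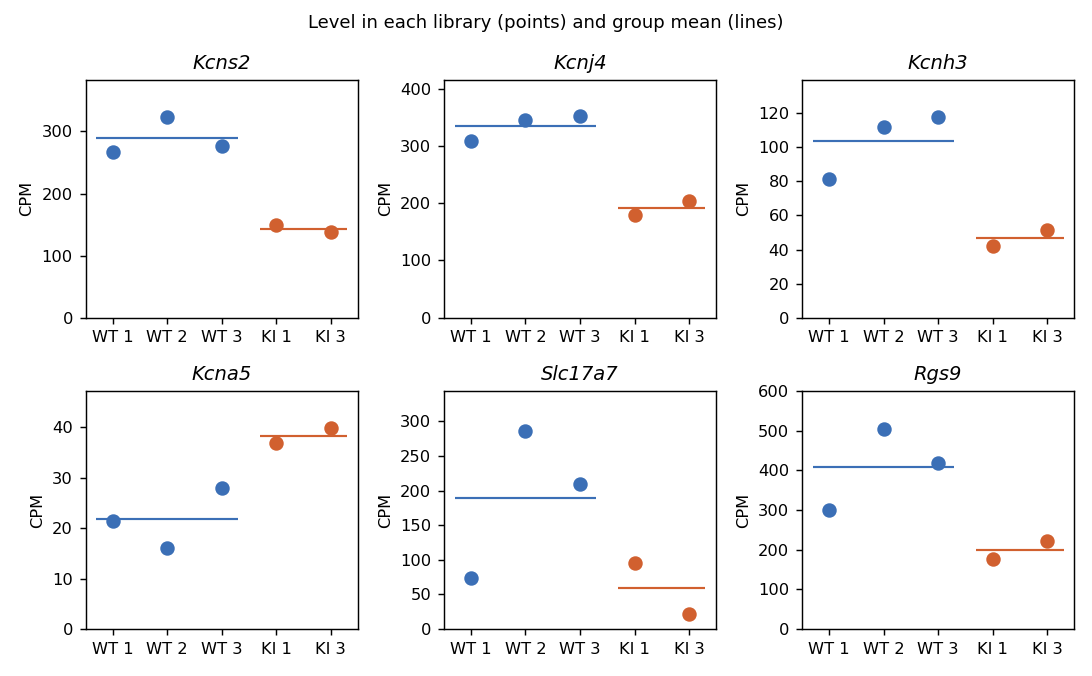
CPM of 4 potassium channel genes and of the marker genes Slc17a7 (cortical projection neurons) and Rgs9 (spiny projection neurons) in each library, WT in blue and KI in orange, with lines at the group means and each axis starting at 0. For Kcns2, Kcnj4 and Kcnh3 both KI libraries lie below all 3 WT libraries, as they do for Rgs9, and for Slc17a7 WT replicate 1 (73.3 CPM) lies below KI replicate 1 (95.8 CPM).

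Kcns2 was the best covered of the 3. The gene (ENSMUSG00000050963) lies on chromosome 15 from 34837355 to 34843407, plus strand, and its feature covers 5164 of 5586 exon bases, 1328 of them coding, 352 in the 5′ UTR and 3484 in the 3′ UTR. Its levels were 267, 324 and 276 CPM in WT replicates 1, 2 and 3 and 149 and 138 CPM in KI replicates 1 and 3. The groups do not overlap, and both KI values lie far under the lowest WT value. The log2 fold change was -1.01 (SE 0.13, edgeR quasi-likelihood adjusted p = 0.006412), a 2.02-fold lower level. The coding part begins to be counted at base 104 of the coding sequence, as the first counted bases show (GRCm38 chr15:34838596-34838655, plus strand, exon 2, from the GENCODE transcript; capitals are counted bases, lower case is coding sequence just before them).
Kcns2: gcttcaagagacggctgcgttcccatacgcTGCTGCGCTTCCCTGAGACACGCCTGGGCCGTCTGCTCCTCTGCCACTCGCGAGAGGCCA

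Kcnj4 was read over short stretches, the start of its coding sequence and part of its 3′ UTR. The gene (ENSMUSG00000044216) lies on chromosome 15 from 79483714 to 79505241, minus strand. The feature, labelled Dmc1 in the files, covers 192 of its 2152 exon bases, 45 coding and 147 in the 3′ UTR, and also exon bases of Gm49593. Fragments of Gm49593 cannot be separated from those of Kcnj4 in its counts. Of its 2435 bases 2011 lie outside Kcnj4. Levels were 308, 345 and 353 CPM in WT replicates 1, 2 and 3 against 179 and 204 CPM in KI replicates 1 and 3. Again no KI library reached the lowest WT library. The log2 fold change was -0.81 (SE 0.12, edgeR quasi-likelihood adjusted p = 0.02612), or 1.75-fold lower. The counted coding bases (chr15:79485718-79485762, GRCm38, minus strand) begin at base 16 of the coding sequence and are shown in capitals, with the start codon and the bases that follow in lower case, to let the measured part of the transcript be placed.
Kcnj4: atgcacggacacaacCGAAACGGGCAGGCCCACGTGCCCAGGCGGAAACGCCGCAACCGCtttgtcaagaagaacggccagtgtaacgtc

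The Kcnh3 exon bases that were read are all coding, but they are a small part of the feature. The gene (ENSMUSG00000037579) lies on chromosome 15 from 99224861 to 99242817, plus strand, and the feature, labelled Fmnl3, covers 154 of 5756 exon bases in exons 3 and 8. Levels were 81.3, 112 and 118 CPM in WT replicates 1, 2 and 3 and 42.3 and 51.6 CPM in KI replicates 1 and 3. WT replicate 1, the WT library with the lowest cortical sum, is also the lowest WT library here, as it is for Kcns2 and Kcnj4, and lies above both KI libraries. In KI, replicate 3 had the lower cortical sum (59.6 against 150 CPM). In that library Kcnh3 and Kcnj4 (204 against 179 CPM) were higher than in KI replicate 1, and Kcns2 (138 against 149 CPM) was lower. The reason for these orders was not tested. The log2 fold change was -1.14 (SE 0.19, edgeR quasi-likelihood adjusted p = 0.03918), 2.21-fold lower. The feature also spans 848 intron bases of the gene, and 4019 of its 5021 bases lie outside Kcnh3. The counted exon bases are in capitals and neighbouring coding bases in lower case, the first at chr15:99226981-99227057 and the second at chr15:99232735-99232811 (GRCm38, plus strand).
Kcnh3 exon 3: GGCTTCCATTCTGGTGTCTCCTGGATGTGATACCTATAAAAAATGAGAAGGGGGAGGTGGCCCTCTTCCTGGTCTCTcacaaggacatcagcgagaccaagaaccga
Kcnh3 exon 8: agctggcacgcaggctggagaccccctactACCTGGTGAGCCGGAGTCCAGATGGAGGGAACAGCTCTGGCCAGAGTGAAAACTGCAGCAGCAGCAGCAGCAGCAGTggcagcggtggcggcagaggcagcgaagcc

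All 3 genes also passed the DESeq2 Wald test (adjusted p = 3.392e-10 for Kcns2, 4.485e-07 for Kcnj4 and 2.788e-05 for Kcnh3) and limma voom (adjusted p = 0.001328, 0.006369 and 0.0228), which called 0.783% and 0.198% of features as lower. Of 13 alternative settings, Kcns2 passed in 9, Kcnj4 in 8 and Kcnh3 in 7, always lower. The setting of an adjusted p under 0.10 is the reported fit at a laxer threshold. Genes already under 0.05 had to pass it, so it adds nothing for these genes. All 3 passed with relative log expression (RLE) size factors (0.0659% of features lower), without a low-count filter (0.451%), with the replicate block (0.681%) and at an adjusted p under 0.10 (0.271%). With unscaled totals (0.0512%) Kcnh3 missed. The edgeR call of all 3 genes was lost without WT replicate 2, without WT replicate 3 and without KI replicate 3 (adjusted p from 0.0931 to 0.4191). In those settings 0%, 0% and 0.00669% of features were called lower. Without KI replicate 1 (0.0984%) that of Kcns2 alone was kept, and without WT replicate 1 (0.84%) all 3 passed. With the log2 level of Slc17a7 as a covariate none passed, as did 0% of features in the lower direction, at log2 fold changes of -0.85 for Kcns2, -0.81 for Kcnj4 and -1.02 for Kcnh3. In homogenised tissue, fewer cells of a type and less RNA per cell cannot be told apart.

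**Figure D2:**
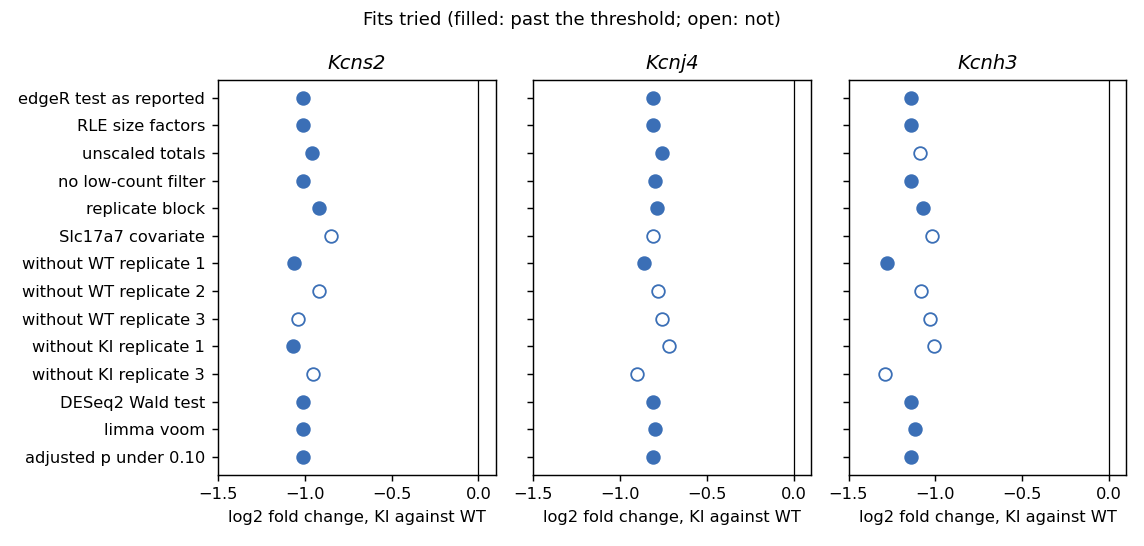
Log2 fold change of Kcns2, Kcnj4 and Kcnh3 (KI against WT, horizontal axis) in the reported edgeR fit and in 13 alternatives (rows), filled where the adjusted p is under the threshold. The points stay between -1.29 and -0.72 whether or not the threshold was passed.

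The promoter of Kcnj4 is shown because the knocked-in allele is in a cAMP-making enzyme and cAMP acts on transcription in part through the cAMP response element. The 250 bases before the gene's start (chr15:79505242-79505491, GRCm38.p6, minus strand, RefSeq) hold 1 copy of TGACG, the half-site of that element, 167 bases before the start and in capitals here; the full element TGACGTCA is not among these letters.
Kcnj4 promoter: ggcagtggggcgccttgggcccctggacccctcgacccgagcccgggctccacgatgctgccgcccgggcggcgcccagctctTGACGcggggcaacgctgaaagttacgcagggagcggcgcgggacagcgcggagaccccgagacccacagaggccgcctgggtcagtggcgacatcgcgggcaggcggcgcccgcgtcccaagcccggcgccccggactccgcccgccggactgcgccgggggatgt
Both strands were searched (TGACG or CGTCA) over the 300-base windows of the RefSeq table, which has promoters for 27 members, Kcns2 and Kcnh3 not among them. The half-site was in 8 of the 27 members and in 20.8% of all 32851 promoters, or 23% of genes with at least 1 promoter holding it, and each full element also counts as a half-site. The full element was in 0 of the 27 and in 1.79% of all promoters (2.03% of genes). A match is a description of letters, not a binding site.

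Across the 26 tested members 16 log2 fold changes were below 0 and 10 above, with a median of -0.08, beside 50.4% of all tested features lower and a median of -0.0024. Log2 fold changes ran from -1.14 (Kcnh3) to 0.82 (Kcna5). An unadjusted p under 0.05 was reached by 7 members, 5 lower and 2 higher, where 6.39% of all features did so (3.72% lower, 2.67% higher). Both KI libraries lay below all WT libraries for 6 members (Kcns2, Kcnj4, Kcnh3, Kcng1, Kcnd2 and Kcnmb4) and above them for 2 (Kcna5 and Kcnh1), where 11.1% and 11.3% of all features were separated in these directions and 22.4% in either. Kcns2, Kcnj4 and Kcnh3, whose calls were known beforehand, are among the lower members in all these counts. Nothing about the family is therefore read from them.

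**Figure D3:**
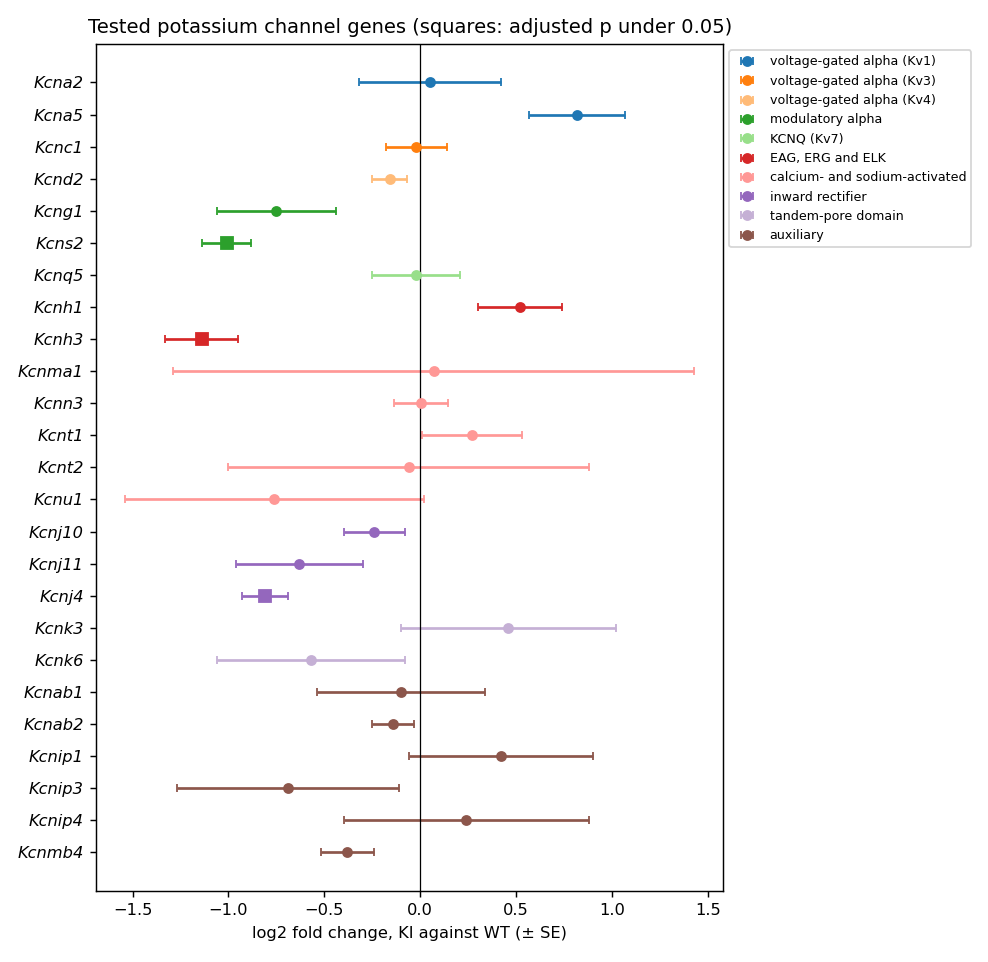
Log2 fold change, KI against WT (horizontal axis, bars are the SE), of tested potassium channel genes (25 drawn), coloured by class, with squares where the edgeR adjusted p is under 0.05. The 3 squares, Kcns2, Kcnj4 and Kcnh3, lie at -0.81 or lower, and the widest bars belong to thinly counted genes such as Kcnma1 (SE 1.36).

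Among the Shaker-, Shaw- and Shal-type alpha subunits no member passed the adjusted threshold. Kcnd2, which carries much of the somatodendritic A-type current of neurons, was covered over 5146 of 5152 exon bases. It stood at 990, 1054 and 1057 CPM in WT replicates 1, 2 and 3 and at 893 and 963 CPM in KI replicates 1 and 3. The groups are separate but close, the log2 fold change being -0.16 (SE 0.09, edgeR quasi-likelihood adjusted p = 0.8903). Kcna5, a delayed rectifier of the Shaker type read over 582 bases of its 3′ UTR in a feature with 1122 further bases outside the gene, had the highest fold change among the members' largest features. It stood at 21.3, 16.1 and 27.9 CPM in WT against 36.9 and 39.9 CPM in KI. Both KI values exceed the highest WT value, at a log2 fold change of 0.82 (SE 0.25, edgeR quasi-likelihood adjusted p = 0.4017). It passed in none of the alternatives. Kcna2, an axonal channel subunit read over 348 bases of 5′ UTR, lay between 8.25 and 18.2 CPM in WT and between 11.4 and 15.4 CPM in KI. Kcnc1, which serves fast-spiking neurons, stood at 295, 217 and 251 CPM in WT, against 291 and 212 CPM in KI. In both groups its replicate 1 was the highest, as were the sums of the thalamic genes, and the log2 fold change was -0.02 (SE 0.16).

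The other tested modulatory alpha subunit, Kcng1, had lower values in both KI libraries but did not pass (edgeR quasi-likelihood adjusted p = 0.6877). Its WT levels were 27.8, 31.9 and 34.2 CPM and its KI levels 25.7 and 11.5 CPM. KI replicate 1 was near the WT range and KI replicate 3 far under it, so the log2 fold change of -0.75 (SE 0.31) was -0.28 without KI replicate 3 and -1.45 without KI replicate 1. Kcnv2 was read over 1727 exon bases at no more than 1.08 CPM in any library and was not tested.

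Within the EAG, ERG and ELK group Kcnh1 and Kcnh3 had opposite signs. Kcnh1, of the EAG type, stood at 27.4, 39.6 and 29.6 CPM in WT, against 40.4 and 52.2 CPM in KI. KI replicate 1 was just above the highest WT library. The log2 fold change was 0.52 (SE 0.22, edgeR quasi-likelihood adjusted p = 0.7024), and the feature spans 8499 intron bases beside 513 coding bases. Another feature over Kcnh1, shared with Rcor3, Slc30a1 and 1700034H15Rik, gave -0.42 (SE 0.25, edgeR quasi-likelihood adjusted p = 0.8843), of which no share can be given to Kcnh1. Kcnh4, an ELK channel gene, could be read only together with other genes. Its features gave log2 fold changes of -0.93 (SE 0.29, edgeR adjusted p = 0.4291), with Dhx58, Dhx58os and Zfp385c, and of -0.38 (SE 0.22, edgeR adjusted p = 0.8832), with Ghdc and Gm24358. No share of these values can be given to Kcnh4. Kcnh6 held 0 counts over 356 coding bases, which allows up to 0.455 CPM in the shallowest library (3 counts of the total, counting error only).

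Among the KCNQ genes no call was made. Kcnq5, a subunit of the M-current, was read over 95 coding bases and lay between 26.7 and 37.3 CPM in WT and between 27.8 and 34.6 CPM in KI, so the groups overlap (log2 fold change -0.02, SE 0.23). Kcnq1 had at most 0.494 CPM in any library over its largest feature.

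Of the 3 tested inward rectifiers Kcnj4 alone passed, and all 3 had log2 fold changes below 0. Kcnj10, a channel of glia, stood at 397, 269 and 302 CPM in WT, against 294 and 252 CPM in KI, so the groups overlap (log2 fold change -0.24, SE 0.16). A second feature over 242 bases of its 5′ UTR gave 0.14 (SE 0.21). Kcnj11, the pore subunit of a channel closed by ATP, read 17.7, 39.7 and 27.0 CPM in WT, then 21.9 and 14.6 CPM in KI (-0.63, SE 0.33, edgeR quasi-likelihood adjusted p = 0.8383). WT replicate 1 lay between the 2 KI libraries there. Kcnj1, Kcnj8 and Kcnj12, over their largest features, did not exceed 2.22 CPM in any library.

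Channels opened by calcium or sodium gave mixed readings. Kcnn3, a small-conductance calcium-activated channel, was steady over its largest feature (1991 exon bases), at 87.6, 84.4 and 83.4 CPM in WT, against 80.5 and 90.1 CPM in KI. Both of its smaller features were higher in each KI library than in each WT library. The one over 39 coding bases stood at 5.37, 7.46 and 6.10 CPM in WT, against 11.6 and 13.5 CPM in KI (0.99 on the log2 scale, SE 0.37, edgeR quasi-likelihood adjusted p = 0.602), and the one over 315 non-coding exon bases had 0.82 (SE 0.43). They hold few counts, and the first spans 8079 intron bases. Kcnt1, opened by sodium, lay between 44.1 and 94.9 CPM in WT and between 77.8 and 108 CPM in KI (0.27, SE 0.26), with WT replicate 1 the lowest. Kcnt2 stayed under 4 CPM. So did Kcnu1, which is classed here with its relatives although calcium and sodium do not open it. For Kcnma1, the large-conductance channel, 9 exon bases were covered, so its 0.267 to 1.85 CPM do not measure the gene.

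Of 14 tandem-pore leak channel genes 4 had a feature, each over a short stretch (129 to 429 exon bases). Their CPM were low, which does not show the level of the whole genes. Kcnk3 stood at 10.7, 3.47 and 6.71 CPM in WT, against 15.0 and 4.196 CPM in KI, high in replicate 1 of each group as the thalamic sums were (log2 fold change 0.46, SE 0.56). Kcnk6 lay between 4.53 and 10.1 CPM in WT and near 4.8 CPM in both KI libraries (-0.57, SE 0.49).

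Auxiliary subunits did not pass either. Kcnmb4, the neuronal beta subunit of the large-conductance calcium-activated channel, was lower in both KI libraries (112 and 105 CPM) than in all WT libraries (154, 140 and 128 CPM). Its log2 fold change was -0.38 (SE 0.14, edgeR quasi-likelihood adjusted p = 0.5542), and its feature also covers the antisense gene Kcnmb4os1, which cannot be separated because counting ignored strand. Kcnab2, a beta subunit of Shaker-type channels, stood at 748, 677 and 750 CPM in WT, against 700 and 615 CPM in KI (-0.14, SE 0.11). Kcnab1, its relative, was thinly read over its largest feature (269 non-coding exon bases, 5.27 to 9.61 CPM in the 5 libraries, log2 fold change -0.10, SE 0.44). A feature over 45 of its coding bases held far more, at 120, 210 and 197 CPM in WT, against 117 and 120 CPM in KI. There WT replicate 1 lay with the KI libraries, as it did for the cortical sum, and the log2 fold change was -0.57 (SE 0.20, edgeR quasi-likelihood adjusted p = 0.5124). It also spans 1803 intron bases and exon bases of A330015K06Rik.

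Kcnip genes encode calcium-binding proteins that join A-type channels, and none of them passed. Kcnip1 stood at 34.0, 6.93 and 11.4 CPM in WT, against 24.4 and 22.6 CPM in KI (log2 fold change 0.42, SE 0.48), with WT replicate 1 above both KI libraries. Its log2 fold change was 1.37 without WT replicate 1 (edgeR quasi-likelihood adjusted p = 0.06704) and 0.05 without WT replicate 2. Kcnip3 lay between 2.47 and 9.06 CPM over all libraries (-0.69, SE 0.58). Kcnip4 gave 0.24 (SE 0.64) over its largest feature and -0.62 (SE 0.34) over 125 coding bases elsewhere. Kcnip2 was read only together with Mgea5, at a log2 fold change of -0.05 (SE 0.14).

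**Figure D4:**
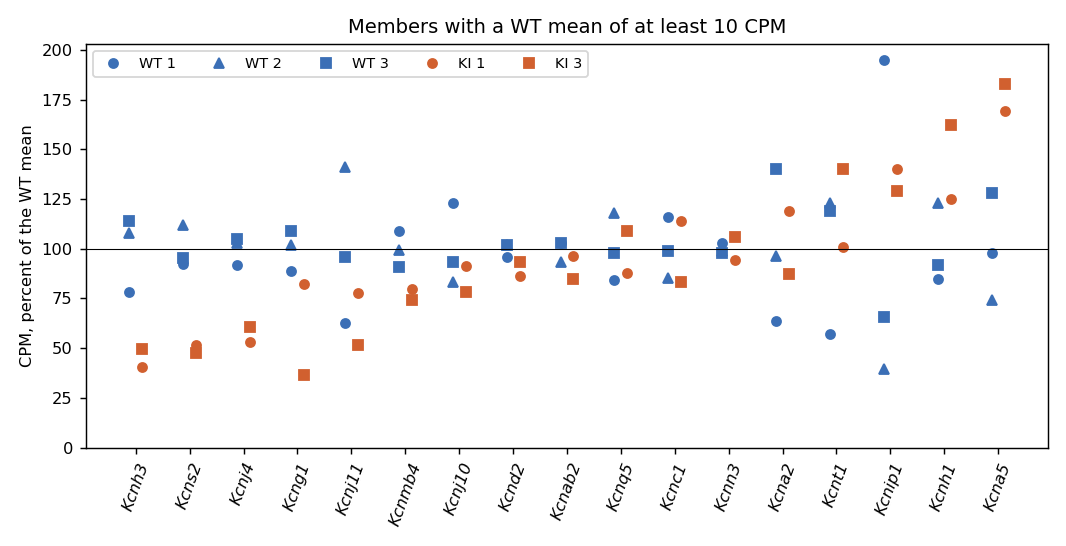
CPM of each library as percent of the WT mean (vertical axis, from 0) for 17 members with a WT mean of at least 10 CPM, ordered by the KI mean, WT in blue and KI in orange, marker shape giving the replicate number. On the left KI libraries of Kcnh3, Kcns2 and Kcnj4 sit at 40.8% to 60.9%, and on the right those of Kcna5 at 169% and 183%, while Kcnip1 in WT replicate 1 reaches 195%.

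Levels of different genes were set side by side only per kilobase of covered exon and only for the 9 members covered over at least 500 bases. In WT, Kcnab2 was highest at 885 ± 50.5 CPM per kilobase (SD, n = 3), over a feature with 5512 intron bases. A second Kcnab2 feature with 573 exon bases gave 148 ± 3.34 CPM per kilobase, below the next 3 genes, so the first place is that of 1 stretch. After the largest Kcnab2 feature came Kcnc1 (213 ± 32.4), Kcnd2 (201 ± 7.37) and Kcnmb4 (192 ± 17.7), whose spreads overlap. The spreads of Kcnh1 (62.7 ± 12.7) and Kcns2 (56.0 ± 5.96) overlap, as do those of Kcnn3 (42.8 ± 1.09) and Kcna5 (37.5 ± 10.2), and Kcnv2 was last at 0.169. In KI, Kcns2 stood at 27.8 ± 1.59 (SD, n = 2), under Kcnn3 (42.8 ± 3.41) and Kcna5 (65.9 ± 3.64), both of which it exceeded in WT. These levels also hold fragments from introns and from outside the genes, so they order stretches and not whole genes.

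The 14 members that were too low to test did not exceed 2.22 CPM in any library, and 5 of them, among which were Kcna10, Kcne1, Kcnh6 and Kcnj1, had 0 counts in all. Kcne2, a subunit abundant in choroid plexus, held 0 to 0.247 CPM over 77 bases, also in KI replicate 3 with its high Ttr. Kcnmb4os2, the only non-coding member, had counts in WT replicate 2 alone (1.33 CPM). Of the 22 features shared with other protein-coding genes none passed the adjusted threshold and 4 had an unadjusted p under 0.05, beside 6.39% of all features. The smallest belonged to the feature over Kcnn1, Arrdc2 and Slc5a5, at 123, 116 and 114 CPM in WT, against 159 and 171 CPM in KI (0.49 on the log2 scale, SE 0.12, edgeR quasi-likelihood adjusted p = 0.2009).

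Other channel genes gave no call in the edgeR test. Of 13 tested partners of potassium channels (scaffolds, axonal adhesion proteins and regulators) 6 had a log2 fold change above 0 and 7 below (median -0.01), with 0 at an unadjusted p under 0.05; the smallest p belonged to Lgi1 (-0.45, SE 0.23) and Dlg2 (0.27, SE 0.19). The 8 tested sodium channel genes had a median of 0.12 and again 0 at an unadjusted p under 0.05, led by Scn9a (0.74, SE 0.43) and Scn2a (0.30, SE 0.19). Of 16 calcium channel genes 3 had an unadjusted p under 0.05, beside 6.39% of all features (median -0.08). Cacnb3, a cytoplasmic beta subunit, stood at 103, 140 and 152 CPM in WT, against 82.2 and 79.6 CPM in KI, where the groups do not overlap. Its log2 fold change was -0.70 (SE 0.17, edgeR adjusted p = 0.1607), and the DESeq2 Wald test called it (adjusted p = 0.01877). Cacna2d2 had 0.69 (SE 0.25, edgeR adjusted p = 0.5619) and Cacnb2 -0.31 (SE 0.13, edgeR adjusted p = 0.6989). The 3 tested HCN and cyclic nucleotide-gated channel genes, which respond to cAMP or cGMP directly, had a median of -0.13. Hcn2 lay between 187 and 246 CPM in WT and between 194 and 200.3 CPM in KI, and Cnga4 at 0.72 (SE 0.80).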

How the data were processed

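The authors deposited unnormalised counts for each annotated gene. Per the file headers the program was featureCounts 2.0.1, with pairs counted as fragments, a fragment assigned to each feature it overlaps, strand ignored and the Ensembl 103 annotation of GRCm39. Aligner and alignment build: not given in the sources used here. Features were laid over GENCODE M21 exons by numeric position (bedtools 2.31.1, no coordinate converted) and named by the sole gene or sole protein-coding gene there: 16422 of 53700 features, holding 57.63% of counts. Where several features matched a member, the largest overlap was taken. edgeR 4.0.16 in R 4.3.3 (filterByExpr, TMM, quasi-likelihood F-test, Benjamini-Hochberg over 13665 features, threshold 0.05) compared KI with WT; the SE is the log2 fold change over the square root of F. DESeq2 1.42.0 and limma 3.58.1 (voom) were alternatives. Every pair of libraries differed by more than counting error (chi-square over its degrees of freedom, 6.37 to 18.2). On simulated counts for this comparison (12891 features, 50 changed per fold) 30% of 1.5-fold and 62% of 2-fold changes were called. In the same simulation 10 unchanged features were called. Changes were planted only in features with a mean of at least 10 CPM, and 3-fold and 5-fold changes were planted too. The shares therefore do not hold for members below that level, and they depend on how many changes were planted. A count of 0 allows up to 0.379 to 0.455 CPM. The potassium channel genes named are those reaching an adjusted or unadjusted p under 0.05, the highest or most changed of each class and a list of striatal channel genes; of each other channel list, the 2 with the smallest p; others named were chosen after their values were seen. A few genes are not reported here. Members, lists and alternatives were chosen with earlier results of these data known.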

Additional observations from a re-analysis of the deposited data

How the results depend on the processing

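The number of changed features, 14 in the edgeR test, was 183 without a low-count filter, 153 with the replicate block, 130 in the DESeq2 Wald test, 51 in limma voom, 67 at an adjusted p under 0.10 and 2 with the Slc17a7 covariate, and leaving out 1 library gave 2 to 162. Replicate numbers 1 and 3 occur in both groups, but no label says that they pair libraries, and same-numbered libraries deviated together only weakly (r = 0.135 and 0.08703 across features); with the block the same 3 potassium channel genes passed. The count of potassium channel genes, 3, was 0 with the covariate, 0 to 3 with 1 WT library left out and 1 (Kcns2) with the gene labels of the files. It was 2 (Kcns2 and Kcnh3) when only features over 1 gene of any kind were used, which leaves out the Kcnj4 feature. Kcnh3 was at an edgeR adjusted p of 0.05572 with unscaled totals. In the other channel lists the count of 0 became 1 (Cacnb3) without a filter and in DESeq2, and was 0 to 1 with 1 library left out. The cause was not tested. Of the 26 tested members 13 kept their direction in every alternative, Kcns2, Kcnj4, Kcnh3, Kcna5, Kcng1, Kcnh1, Kcnd2 and Kcnmb4 among them. None of the 13 that changed direction passed the threshold in any fit. With unscaled totals the log2 fold changes of Kcnc1 and Kcnq5 were both 0.03. With the replicate block Kcnk3 was at -0.06, Kcnma1 at -0.68, Kcnn3 at -0.0056, Kcnq5 at 0.11 and Kcnt2 at 0.33. With the Slc17a7 covariate Kcnip1 was at -0.23, Kcnip3 at 0.28, Kcnj11 at 0.17, Kcnma1 at -1.67, Kcnn3 at -0.10, Kcnq5 at 0.04 and Kcnt2 at 0.73. With 1 library left out the ranges were -0.19 to 0.37 for Kcna2, -0.50 to 0.21 for Kcnab1, -0.26 to 0.20 for Kcnc1, -0.75 to 0.83 for Kcnip4, -0.73 to 1.10 for Kcnk3, -1.38 to 0.76 for Kcnma1, -0.08 to 0.08 for Kcnn3, -0.18 to 0.12 for Kcnq5, -0.0042 to 0.48 for Kcnt1 and -0.73 to 0.42 for Kcnt2. Where 1 KI library is left, its spread is borrowed from WT. The highest level per kilobase was that of Kcnab2 with 500 covered bases and is that of Kcnc1 with 1000 (213.2 CPM per kilobase).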

Other observations

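Kcns2, Kcnj4 and Kcnh3 all lie on chromosome 15, and they are the 3 features called on that chromosome among 567 tested there. Of all tested features 0.102% were called and 0.0585% were called lower. The calls of these 3 genes were known when the family was taken up, so nothing is read from their count on the chromosome. At an unadjusted p under 0.05, 5.47% of tested features on chromosome 15 were lower in KI, against 3.72% over all chromosomes and 5.16% on chromosome 4. The calcium channel gene Cacnb3, also on chromosome 15 (98630840 to 98644529), had 82.2 and 79.6 CPM in KI and 103 to 152 CPM in WT without passing the edgeR test. Camk2n1, an inhibitor of a calcium-dependent kinase that was listed with the cortical genes, lies on chromosome 4. It read 36.0, 66.6 and 73.5 CPM in WT, and in KI 29.6 and 22.1 CPM. Its log2 fold change was -1.18 (SE 0.28, edgeR adjusted p = 0.1548, DESeq2 Wald adjusted p = 0.009325, limma voom adjusted p = 0.1788). These values are given as a description, and no test of the chromosome was made.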
